A study of Drosophila melanogaster with 2 samples.

Results

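The Dpp pathway genes are the 10 genes of the fly's bone morphogenetic protein (BMP) signalling route that were chosen by name: the ligands dpp and gbb, the receptors tkv, sax and put, the Smads Mad and Med, and the patterned targets or Smad partner brk, shn and Dad. They are 10 of 13834 protein-coding genes of the Drosophila melanogaster annotation, and all 10 were found by symbol. The question asked of them was where MESR4, a nuclear protein encoded by the gene of that name, was found at their promoters. Chromatin immunoprecipitation with sequencing (ChIP-seq) was carried out on whole embryos of mixed sex collected over 0-24 h after laying. The embryos came from a stable transgenic line in which GFP is fused to the C terminus of MESR4, and there was 1 group of 2 biological replicates, numbered 1 and 3. The free-text labels call both samples input controls, but their antibody field names MESR4 and the deposited lists were called against a separate control, so they are treated here as immunoprecipitates of MESR4. No label says whether the line still carried untagged MESR4 or which promoter drove the fusion. A peak in whole embryos does not tell in which cells or at which hour the protein was bound.

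Dpp is a secreted BMP ligand that patterns the dorsal side of the early embryo and later many epithelia, and Gbb is a related BMP ligand that can act with it. A ligand brings type I receptors (Tkv or Sax) together with the type II receptor Put, which activates the type I kinase. The type I kinase then phosphorylates the Smad protein Mad. Mad joins the co-Smad Medea, encoded by Med, and the complex enters the nucleus. With the zinc finger protein Schnurri, encoded by shn, it turns off brk, whose product represses many Dpp targets, while Dad, an inhibitory Smad, is itself switched on by the pathway and dampens it.

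A promoter peak was counted where the summit of a peak in the authors' thresholded list lay within 500 bp of any annotated transcription start site (TSS) of a gene. That list holds the 6415 summits that passed the authors' threshold on the irreproducible discovery rate (IDR), a measure of reproducibility. Passing it does not mean that a summit ranked high in each replicate. The promoter summit of emc, a gene of the wider list below, passed with rank 11982 in replicate 1. Their signal, the authors' enrichment value for each peak, lay between 176.1 and 3171 with a median of 378.7. All 6415 were also the 6415 strongest of the 30000 summits in the list made from both replicates together, so a rank in that pooled list of 6415 or better is the same as passing the threshold. Each replicate also has its own list of 30000 summits. The signal scale is set separately in each list, and replicates are therefore compared by rank, with rank 1 the strongest.

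MESR4 had a promoter peak at 7 of the 10 genes: gbb, tkv, sax, put, Mad, Med and shn. It had none at dpp, brk and Dad. Over all protein-coding genes, 5889 of 13834, or 42.6%, had such a peak, so a promoter peak was common. By role, the peak was present at 3 of 3 receptors, 2 of 2 Smads, 1 of 2 ligands and 1 of 3 of the patterned targets or Smad partner. With 2 or 3 genes to a role these counts are descriptions, and no test was made of them. The 7 genes had a median promoter signal of 630.0, against 467.9 over the 5889 bound genes. Every one of the 7 ranked within the top 6415 summits of replicate 1 and of replicate 3, against 5466 of the 5889 bound genes (92.8%).

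**Figure D1:**
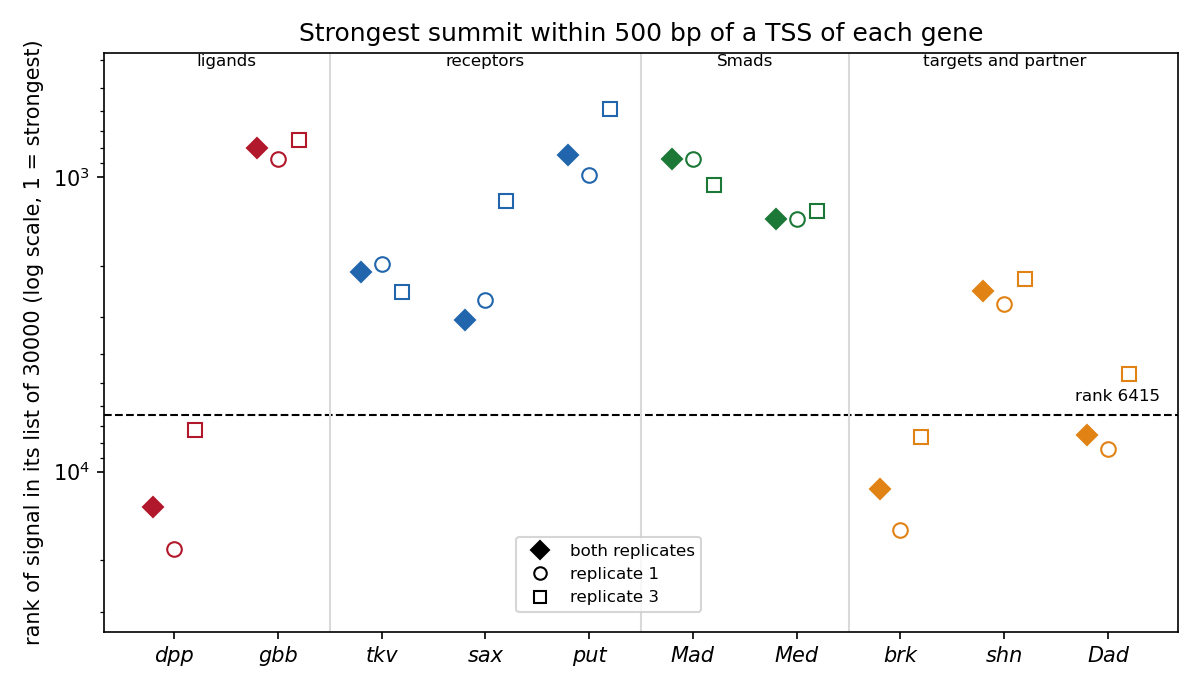
Rank of the strongest promoter summit of each of the 10 genes in the pooled list and in the lists of replicates 1 and 3 (log axis, rank 1 strongest), with the threshold at rank 6415 drawn as a line. The 7 genes with a promoter peak lie on the strong side of the line in all 3 lists, dpp and brk lie on the weak side in all 3, and Dad crosses it in replicate 3 alone.

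The promoter sequences of 6 start sites are shown because they hold the sequence words counted here, at start sites with a peak and at others without one. Each is 130 bases of the dm6 build read 5′ to 3′ on the gene's strand, from 100 bases before the TSS to 29 after it. Capitals mark the matched word. In tkv-RA (chr2L:5271355-5271484, minus strand) and tkv-RB (chr2L:5242591-5242720, minus strand) it is TATCGATA, the DNA replication-related element (DRE) that is common in promoters of broadly expressed fly genes. In Mad-RA (chr2L:3159614-3159743, minus strand) it is GGTCACAC, the core of Motif 1, another word of such promoters, and also TATAAA, the letters of the TATA box. These letters begin 84 bp upstream of the TSS. In dpp-RC (chr2L:2451129-2451258, plus strand) it is CAGGTAG, the site of the early embryonic activator Zelda. In brk-RA (chrX:7307839-7307968, plus strand) it is GCCGNCG, a Mad-binding word. In Dad-RA (chr3R:17053907-17054036, plus strand) it is GAGAGAG, the GAGA element. In brk-RA and Dad-RA the matches lie on the opposite strand, so the capitals show the reverse complement of the word.
tkv-RA, with a peak: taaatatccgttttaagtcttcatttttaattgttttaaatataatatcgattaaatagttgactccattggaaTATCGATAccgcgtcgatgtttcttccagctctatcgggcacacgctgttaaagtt
Mad-RA, with a peak: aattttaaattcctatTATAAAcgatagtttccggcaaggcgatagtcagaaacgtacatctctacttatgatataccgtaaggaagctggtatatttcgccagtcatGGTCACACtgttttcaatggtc
tkv-RB, without a peak: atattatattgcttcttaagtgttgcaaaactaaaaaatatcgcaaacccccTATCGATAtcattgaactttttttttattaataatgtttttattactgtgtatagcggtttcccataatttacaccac
dpp-RC, without a peak: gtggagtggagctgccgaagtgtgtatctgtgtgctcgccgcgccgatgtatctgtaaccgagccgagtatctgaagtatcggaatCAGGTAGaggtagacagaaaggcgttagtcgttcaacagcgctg
brk-RA, without a peak: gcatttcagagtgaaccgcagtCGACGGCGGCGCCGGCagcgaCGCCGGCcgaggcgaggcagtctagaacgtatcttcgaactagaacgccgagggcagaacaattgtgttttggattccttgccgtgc
Dad-RA, without a peak: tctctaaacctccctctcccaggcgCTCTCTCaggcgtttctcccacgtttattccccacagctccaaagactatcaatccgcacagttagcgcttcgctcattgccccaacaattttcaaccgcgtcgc

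The 10 genes have 23 annotated start sites, of which 8 had a peak and 15 had none. Within 100 bp of the start site on either strand, the DRE or the Motif 1 core was found at 3 of the 8 start sites with a peak and at 1 of the 15 without. The DRE began 26 bp upstream of the TSS in tkv-RA and 10 bp downstream of it in sax, whose Motif 1 core began 13 bp upstream. The Motif 1 core of Mad-RA began 8 bp downstream of the TSS. The exception without a peak was tkv-RB, whose DRE began 48 bp upstream of its TSS. gbb, put, Med, sax-RB and the bound start site of shn held neither word in this window. The start sites of sax share their summits and were counted separately. Over the canonical promoters of 13833 protein-coding genes the DRE was present in 7.56% and the Motif 1 core in 6.57%. Among canonical promoters of genes with a promoter peak these shares were 15.3% and 14.0%, and among those without one they were 1.83% and 1.03%. These shares are for each word singly and for canonical start sites, so they are not like for like with the counts over 23 start sites. At canonical start sites sax alone of the 10 genes held either word.

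The other words were spread differently among the 23 start sites. The shares of all promoters given beside them are again for canonical start sites alone. The initiator TCAGT, found in 42.9% of all promoters, was present at 2 of the 8 start sites with a peak and 6 of the 15 without. It began 2 bp past the TSS in put, which has a peak, and in dpp-RA, which has none. In dpp-RE, also without a peak, it began at the TSS itself. At Med, with a peak, the match lay on the opposite strand 75 bp upstream. Among canonical promoters the word was present in 32.9% of those with a promoter peak and 50.3% of those without one. The Mad-binding word, found in 9.02% of all promoters, was present at 1 of 8 start sites with a peak, that of shn, and at 3 of 15 without. The 4 matches upstream of brk lie on the opposite strand, begin 78, 75, 69 and 57 bp before the TSS, and overlap in part. The GAGA element (3.64% of all promoters) was present at Dad-RA and at tkv-RD, both without a peak. The Zelda site (1.07% of all promoters) was present at dpp-RC alone among the 23. The TATA box, found in 28.7% of all promoters, was present at 1 start site with a peak and 2 without. A match is a match of letters and does not show that a protein was bound there.

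Of the ligands, gbb had a strong promoter peak and dpp had none. gbb (FBgn0024234, chromosome 2R, 23851562 to 23853247, plus strand) has 1 TSS. Its summit ranked 872 in replicate 1 and 748 in replicate 3, and in the pooled list it had a signal of 779.7 and rank 799. Both replicates placed it similarly high in their lists, and it was stronger than 82.7% of the promoter peaks of all bound genes. The summit lay 112 bp downstream of the TSS, in the 5′ UTR, and 117 and 84 bp downstream in replicates 1 and 3. The neighbour ytr, on the opposite strand, has a start site 82 bp from that of gbb and 194 bp from the gbb summit. A separate summit, with signal 416.2 and rank 2851, was 49 bp from a different start site of ytr.

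At dpp (FBgn0000490, chromosome 2L, 2428372 to 2459823, plus strand) none of the 4 start sites had a summit that passed the threshold, and no such summit lay in the gene or within 5000 bp of it. The strongest pooled summit within 500 bp of a start site was 83 bp past dpp-RE, with signal 66.0 and rank 13232, which is 37.5% of the threshold signal. In the replicates the strongest ranks were 18374 in replicate 1, at dpp-RC, and 7199 in replicate 3, at dpp-RE. Both ranks were past 6415, and the replicates did not name the same start site. The canonical dpp-RC had a pooled summit with signal 62.7 and rank 13813, and dpp-RA had none among the 30000. A stronger summit lay in an intron 5224 bp past dpp-RA, with pooled signal 157.1 and rank 6979. It ranked 6154 in replicate 1 and 13607 in replicate 3, so it too missed the pooled threshold.

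All 3 receptors had a promoter peak. tkv (FBgn0003716, chromosome 2L, 5219000 to 5271384, minus strand) encodes the main type I receptor for Dpp and has 4 start sites, of which only the most upstream, tkv-RA, had a peak. That summit ranked 1980 in replicate 1 and 2465 in replicate 3, with pooled signal 505.1 and rank 2107, and lay 168 bp past the TSS in an intron. At tkv-RB, which shares the DRE with tkv-RA, the pooled signal was 104.1 at rank 9293, with rank 8830 in replicate 1 and 12768 in replicate 3. That pooled summit lay 90 bp upstream of tkv-RB and nearer to a start site of CR14033, at 11 bp. The replicate 1 summit was 10 bp from CR14033, and the replicate 3 summit lay 62 bp past tkv-RB. At tkv-RD it was 56.2 at rank 15319, and at the canonical tkv-RC no summit was listed. The bound start site of tkv is therefore not its canonical one, and no other protein-coding gene starts within 1000 bp of the gene's start sites.

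sax (FBgn0003317, chromosome 2R, 7806484 to 7810067, plus strand), the other type I receptor, had the lowest pooled signal of the 7 peaks, but it was not the weakest of the 7 in either replicate. Its strongest summit ranked 2613 in replicate 1 and 1211 in replicate 3, and had pooled signal 393.6 and rank 3057, with 37.9% of the promoter peaks of bound genes weaker. Of the 10 genes it is the lowest above the threshold signal of 176.1, and well clear of it, while Dad, with 142.0, is the highest below it. The sax region was 1477 bp wide and held 3 summits that passed, at 30 bp upstream of the TSS shared by sax-RA and sax-RC and at 58 and 264 bp past that of sax-RB. The later summits had signals of 309.6 and 242.8. Nop17l starts 99 bp from sax on the opposite strand, 69 bp from the strongest pooled summit. In replicate 3 the strongest summit was nearer to Nop17l, at 28 bp, than to sax, at 71 bp. In replicate 1 it was nearest to sax, at 23 bp.

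put (FBgn0003169, chromosome 3R, 14619030 to 14625703, minus strand) encodes the type II receptor and has 1 TSS. Its summit ranked 986 in replicate 1 and 589 in replicate 3, and 846 in the pooled list with signal 764.7, stronger than 81.8% of promoter peaks. This peak cannot be given to put alone. His4r, a histone H4 gene on the opposite strand, starts 52 bp from put, and the summit was 5 bp from the His4r TSS and 80 bp upstream of that of put. A further summit in the same 1172 bp region, with signal 375.7 and rank 3233, was 279 bp upstream of put and again nearer to His4r, at 194 bp. When each summit was given to its nearest TSS alone, put was without a promoter peak.

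**Figure D2:**
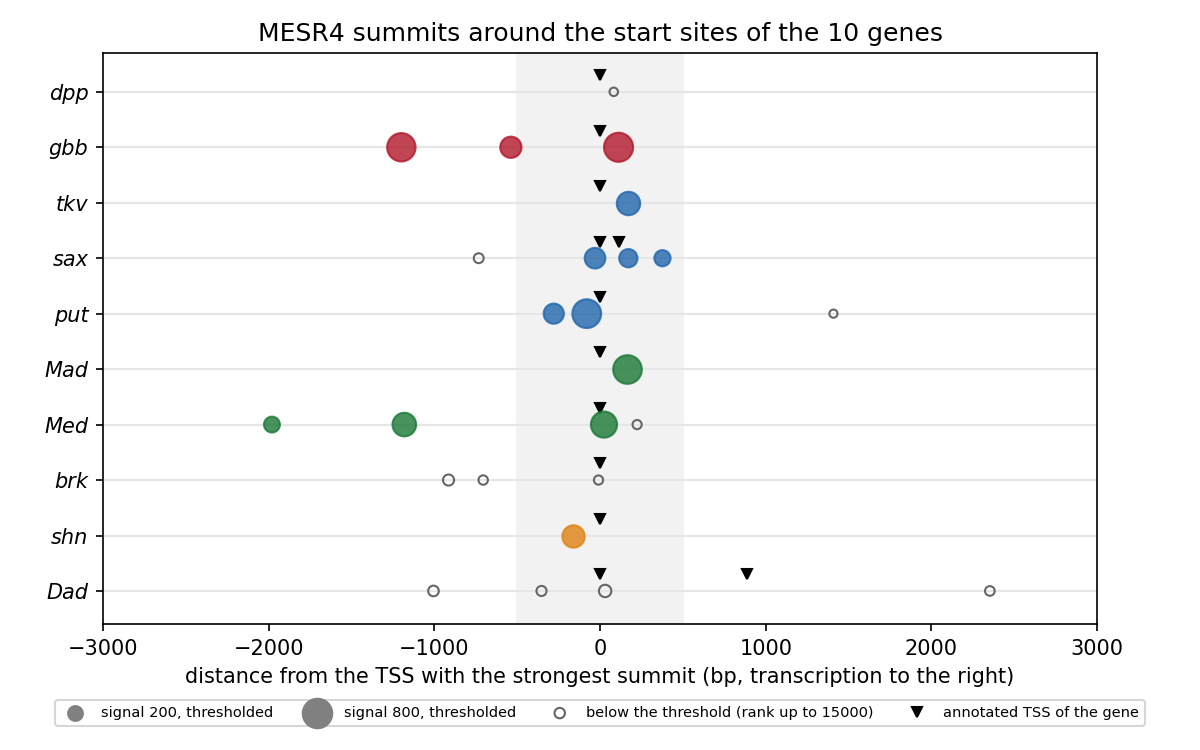
Pooled summits around the start site that has each gene's strongest promoter summit (x axis, distance in bp, transcription to the right); filled circles passed the threshold and grow with signal, open circles are weaker summits down to rank 15000, triangles are start sites, and the grey band is the 500 bp window. The strongest summit in the band lies downstream of the TSS at gbb, tkv, Mad and Med and upstream at sax, put and shn, and at dpp, brk and Dad the band holds open circles alone.

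Both Smads had a promoter peak, and their ranks were close in the replicates. Mad (FBgn0011648, chromosome 2L, 3146056 to 3159643, minus strand), the Smad that the receptors phosphorylate, has 2 start sites. At Mad-RA, the upstream one, the summit ranked 873 in replicate 1 and 1068 in replicate 3, with pooled signal 757.5 and rank 871. It lay 165 bp past the TSS in an intron, and at 164 and 166 bp in replicates 1 and 3, the closest match in position among the 7 genes. The canonical start site, Mad-RB, had no pooled summit within 500 bp. A separate intronic summit 690 bp upstream of Mad-RB passed the threshold with signal 272.8 and rank 4525, and ranked 4522 in replicate 1 and 4922 in replicate 3. The neighbour gkt starts 307 bp from Mad-RA on the opposite strand, and its TSS was 472 bp from the Mad summit.

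Med (FBgn0288966, chromosome 3R, 31611046 to 31615375, plus strand), the co-Smad, has 1 TSS and a summit that ranked 1394 in replicate 1 and 1302 in replicate 3, with pooled signal 630.0 and rank 1387. The ranks were alike, but the positions were not: the strongest summit lay 174 bp upstream of the TSS in replicate 1, 40 bp upstream in replicate 3 and 24 bp downstream in the pooled list. Replicate 1 held another summit 27 bp downstream, at rank 1436. The region was 1196 bp wide and takes in the start of CycG on the opposite strand, 68 bp from that of Med and 92 bp from the pooled summit. In both replicates the strongest summit was nearer to CycG than to Med. It was 106 bp from CycG in replicate 1 and 28 bp in replicate 3. As at put, the peak cannot be given to Med alone. CycG had a further summit 50 bp from a start site, with signal 513.8 and rank 2054.

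Of the patterned targets and Smad partner, shn alone had a promoter peak. shn (FBgn0003396, chromosome 2R, 11159086 to 11217394, plus strand) encodes the large zinc finger partner of the Smads and has 5 start sites. The peak was at 1 of them, the canonical TSS of shn-RD and shn-RF, with rank 2691 in replicate 1, 2226 in replicate 3 and 2438 in the pooled list, where its signal was 463.2. The summit was 161 bp upstream in the pooled list and replicate 3 and 158 bp upstream in replicate 1, and the region was 252 bp wide, against a median of 547 bp over all promoter peaks. Among the other start sites the strongest pooled summit was at shn-RB, with signal 122.4 and rank 8343. shn also held 4 summits in its introns outside the promoter window that passed, with signals of 313.3, 223.2, 213.0 and 178.5. This was the largest number inside any of the 10 genes, followed by 2 in Dad and 1 in Mad.

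brk (FBgn0024250, chromosome X, 7307939 to 7311132, plus strand) encodes the repressor that Dpp signalling turns off, and has 1 TSS. Its pooled summit lay 9 bp upstream with signal 78.1 and rank 11502, 44.4% of the threshold signal. It ranked 15772 in replicate 1 and 7643 in replicate 3, so neither replicate reached 6415. No summit that passed lay within 5000 bp of the gene. The pooled list held a summit 914 bp upstream with signal 113.3 and rank 8785, which is stronger than that at the TSS and also under the threshold.

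Dad (FBgn0020493, chromosome 3R, 17054007 to 17070408, plus strand) encodes the inhibitory Smad and was the nearest to the threshold of the 3 genes without a promoter peak. Its strongest pooled summit lay 31 bp past the TSS of Dad-RA, with signal 142.0 and rank 7533, 80.7% of the threshold signal. It ranked 4650 in replicate 3 and, at a summit 352 bp upstream, 8352 in replicate 1, where the summit 37 bp downstream ranked 9561. From replicate 3 alone Dad would count as bound and from replicate 1 alone it would not. Dad also had a pair of summits that passed in an intron 10231 and 10508 bp past the start of Dad-RB, with signals of 308.2 and 194.1 and ranks 4048 and 5960. A much stronger summit 2309 bp beyond the end of the gene, with signal 1089 and rank 288, was 15 bp from the TSS of mRpS11.

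**Figure D3:**
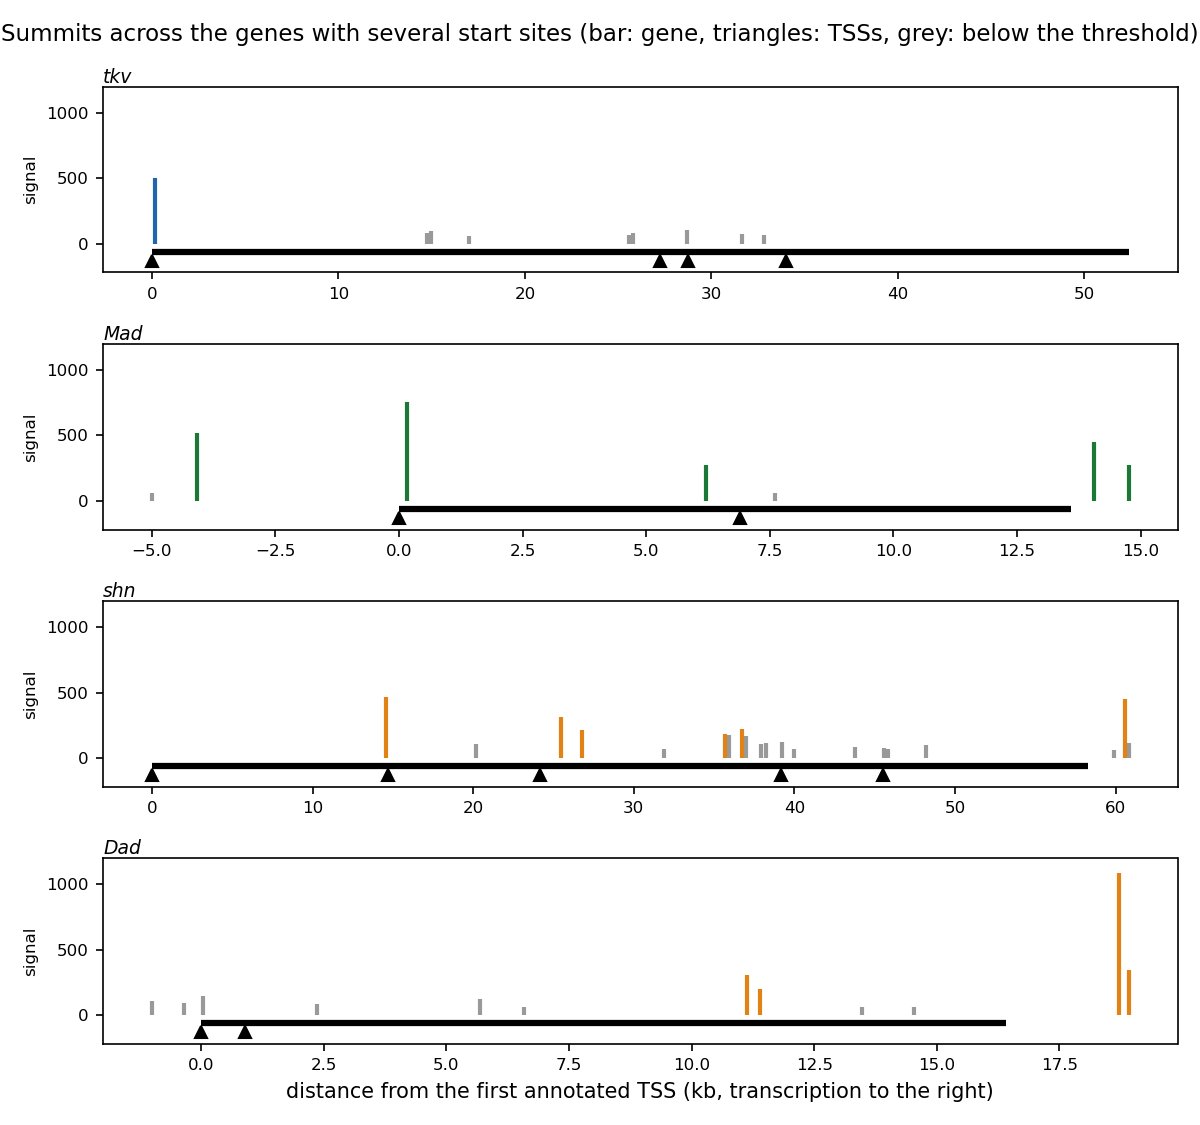
Pooled summits across tkv, Mad, shn and Dad, drawn as bars whose height is the signal, against distance in kb from the most upstream start site with transcription to the right; the black line is the gene, triangles are start sites, coloured bars passed the threshold and grey bars did not. The tallest bars inside tkv and Mad stand at the most upstream start site. The tallest inside shn stands near its canonical start site, with 4 further coloured bars in intronic sequence. The 2 coloured bars inside Dad stand far from its start sites.

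Across the 3 genes without a promoter peak, replicate 3 ranked the start-site summit higher than replicate 1 each time: 7199 and 18374 at dpp, 7643 and 15772 at brk, and 4650 and 8352 at Dad. Among the 7 with a peak, replicate 3 ranked it higher at 5 (gbb, sax, put, Med and shn) and lower at tkv and Mad. Many weak summits sat in regions of a fixed width. Of the 30000 pooled summits 71.8% lay in a region of the list's commonest width, 444 bp, against 2.96% of the 6415 that passed, and the pooled regions at dpp and brk had that width while that of Dad was 208 bp wide.

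**Figure D4:**
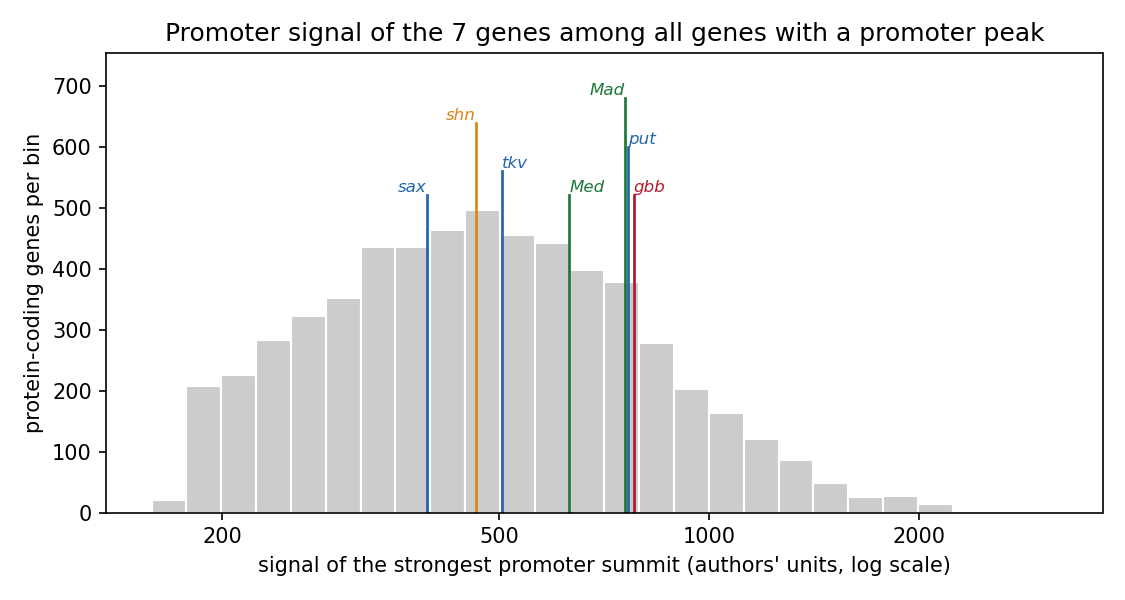
Number of protein-coding genes by the signal of their strongest promoter summit (log axis, authors' units) for the 5889 genes with a promoter peak, with the 7 pathway genes marked by lines whose height has no meaning. The 7 genes lie between 393.6 (sax) and 779.7 (gbb), from the middle of the distribution to its upper side.

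The pooled summit lay downstream of the TSS at 4 of the 7 genes (gbb, tkv, Mad and Med), against 65.6% of all genes with a promoter peak, whose median position was 62 bp downstream. At gbb, tkv and Mad it was downstream in both replicates too, while at Med it was upstream in both. The distance between the strongest summits of the replicates had a median of 78 bp over the 7 genes, against 38 bp over all bound genes, and it was within 100 bp at 6 of 7 genes, against 82.1% of all bound genes. Med, at 134 bp, was the exception.

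Having a close neighbour went with having a promoter peak. A protein-coding gene that shares its start region with another can be counted as bound through a peak of either. Of the 10 genes, 5 (gbb, sax, put, Mad and Med) have another protein-coding TSS within 1000 bp, and all 5 had a promoter peak, against 66.6% of the 5901 such genes in the annotation. The other 5 have no such neighbour, and 2 of them (tkv and shn) had a peak, against 24.7% of 7933 such genes. dpp, brk and Dad thus stood among genes in which most had no peak, and role and neighbour cannot be told apart over 10 genes. The number of start sites also went with the share bound: 38.0% of genes with 1 TSS, 52.8% with 2, 60.4% with 4 and 61.2% with 5 had a promoter peak. dpp, with 4 start sites and no peak, and Dad, with 2 and no peak, were on the less common side. So were gbb, put and Med, with 1 TSS and a peak.

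A wider list of 51 further genes of BMP and activin signalling, grouped by role, had a promoter peak at 22, or 43.1%, close to the 42.6% of all protein-coding genes. Their median promoter signal was 324.1 over the 22 bound genes, lower than the 630.0 of the 7 pathway genes and the 467.9 of all bound genes. Of the 22, 16 (72.7%) were within the top 6415 of both replicates, against 92.8% of all bound genes. The roles differed widely. A peak was present at 10 of 11 transducers and intracellular regulators, 7 of 15 extracellular regulators, 2 of 5 ligands, 1 of 2 receptors and 2 of 18 targets. No test was made of these shares, and some roles differ in how often a neighbour is close: 17 of the 18 targets have no protein-coding TSS within 1000 bp, and 7 of the 11 transducers have one.

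**Figure D5:**
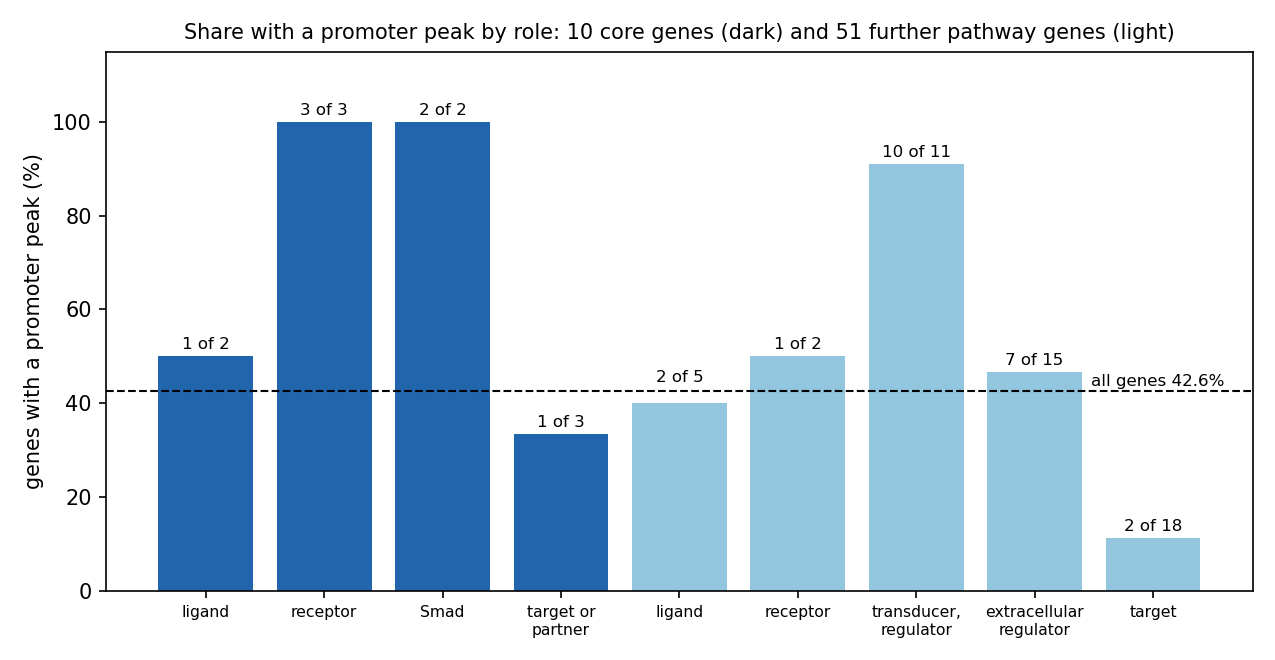
Percent of genes with a promoter peak by role in the 10 pathway genes (dark) and in the 51 further genes (light), with the count of genes with a peak of all genes in that role above each bar and the 42.6% of all protein-coding genes as a line. Receptors and Smads of the 10 genes and the intracellular regulators of the wider list stand furthest above the line. The ligands of the 10 genes (50%) and the receptors (50%) and extracellular regulators (46.7%) of the wider list also stand above it. The targets of the wider list stand at 11.1%.

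Among the intracellular genes, the strongest peaks were those of Smurf, a ubiquitin ligase that acts on Smads, with signal 918.6 and rank 509, gro, the Groucho corepressor through which Brk can act, with signal 693.0 and rank 1115, and Smox, the Smad of the activin branch, with signal 520.1 and rank 2003. Smurf ranked 438 in replicate 1 and 587 in replicate 3. The 1 without a peak was hiw, a ubiquitin ligase studied at synapses, at pooled rank 14178. The 4 transducers without a close neighbour (Smox, emc, gro and nej) each had a peak. emc was the weakest of these, at rank 11982 in replicate 1 and 2736 in replicate 3, and it passed in the pooled list at rank 6163.

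Of the receptors, babo, the type I receptor of the activin branch, had a peak with signal 806.6 and rank 734, at rank 653 in replicate 1 and 359 in replicate 3. wit, a type II receptor best known from motor neurons, missed the threshold with signal 153.9 and rank 7097. It ranked 5808 in replicate 3 and 8333 in replicate 1, a split like that of Dad. Of the ligands, mav had signal 468.2 and rank 2393 and myo 205.1 and rank 5741. Actbeta, daw and scw had none, and scw, the early partner of Dpp, had no summit within 500 bp of its TSS in any of the lists.

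The extracellular regulators need more care in the assignment. srw had the highest signal, 1024 at rank 350, but its summit was 469 bp upstream of its TSS and 96 bp from that of CG1316. In replicate 3 it ranked 513, with the summit 426 bp upstream, and replicate 1 listed no summit within 500 bp of the srw TSS. Fur1, which encodes a furin-type protease, had signal 391.7 and rank 3079 with a summit 30 bp from the TSS of Vps33B. The summit of magu, with signal 318.8 and rank 3927, was 295 bp upstream of a start site of its own. In replicate 1 the strongest summit was 276 bp upstream of the same start site. In replicate 3 it was 473 bp upstream of the other start site of magu. In all, 3 of the 22 summits were nearer to another gene's TSS. All 6 extracellular regulators with a close neighbour had a peak and 1 of the 9 without one did, cv-2 at rank 6176. dally, a heparan sulphate proteoglycan that shapes the Dpp gradient, had pooled signal 93.4 and rank 10034, with rank 5932 in replicate 3 and 14195 in replicate 1. Fs and Fur2 had no promoter peak.

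Of the targets, tin, a homeobox gene of the dorsal mesoderm and heart, had signal 329.4 and rank 3785, with a summit 168 bp upstream and ranks of 3624 and 4609 in replicates 1 and 3. ush, a cofactor of GATA factors in the dorsal ectoderm and blood, had signal 219.0 and rank 5454 with its summit 3 bp past a TSS, at rank 7522 in replicate 1 and 3334 in replicate 3. The 16 without a peak include Ance, bam and bap, whose strongest pooled summits ranked 10720, 7873 and 28385. Of the 29 genes of the wider list without a promoter peak, none was within the top 6415 of replicate 1 and 4 were within that of replicate 3.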

How the data were processed

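MESR4-GFP ChIP-seq peak lists from 2 biological replicates of 1 group were used. The authors deposited 4 lists on the dm6 build: 1 per replicate, 1 of both replicates pooled and the IDR-thresholded list. Column 7 of each is the signal value of a peak as the authors deposited it, on a scale set per list. Chromatin was sonicated to fragments of 200-800 bp, per the labels. The antibody that recognised the fusion, the aligner, peak caller, IDR threshold and read depth are named by neither the labels nor the file headers, and no interval could be computed. Replicates are labelled as biological, with no statement of which embryos each drew on.

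Summits were taken as the start plus the summit offset and compared with the start sites of every transcript in Ensembl release 115 (genome release 6, the same assembly as dm6). Protein-coding genes of the histone cluster (111 genes, chromosome 2L) were left out. All start sites of a gene counted, and its strongest summit was described. The neighbour distance was 1000 bp. Of 7 motifs, matches were sought within 100 bp of a TSS on both strands. Scripts ran in Python 3.11.15 with pandas 2.3.3, numpy 2.4.6 and matplotlib 3.10.9. No statistical test was run, since there is 1 group and the genes are not replicates.

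The 10 genes, the wider list and the rules were chosen with earlier results of these data known. All 10 genes were named, with any gene whose TSS was nearer to the summit and, per role of the wider list, up to 3 genes with the strongest peak and up to 3 without one in alphabetical order. The neighbours ytr, Nop17l, gkt, CycG, CR14033 and mRpS11, and emc, nej and cv-2, were named after their values were seen. Alternatives were a window of 250 or 1000 bp, thresholded summits stronger than the list's median, all pooled summits, each replicate alone, nearest TSS alone, protein-coding transcripts alone, canonical TSS alone, the strongest summit per region, and a motif window of 200 bp.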

Additional observations from a re-analysis of the deposited data

How the results depend on the processing

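The 7 genes with a promoter peak were the same genes with windows of 250 and 1000 bp, with only the summits above the median signal, with protein-coding transcripts alone, with the strongest summit of each region alone and from replicate 1 alone. From replicate 3 alone Dad was added, for 8, so that leaving out 1 replicate gave 7 to 8. With each summit given to its nearest TSS alone put was lost, for 6. With the canonical TSS alone tkv and Mad were lost, for 5. With all 30000 pooled summits all 10 genes counted. The wider list, with 22 genes bound, gave 10 with summits above the median and 41 with all pooled summits, and leaving out 1 replicate gave 16 to 26. The share of all protein-coding genes, 42.6%, became 27.4% with summits above the median and 62.5% with all pooled summits, and leaving out 1 replicate gave 41.7% to 43.3%. Without replicate 1 the ranks of tkv, sax, Mad, Med and Dad were 2465, 1211, 1068, 1302 and 4650. With a motif window of 200 bp the DRE was present in 8.75% and the Motif 1 core in 7.71% of all promoters, and at canonical start sites sax remained the only one of the 10 genes with either. The GAGA element went from Dad alone to dpp, shn and Dad at canonical start sites, and that of shn has a peak. The TATA box went from tkv alone to gbb, tkv and Med. No paired analysis was possible because there is 1 group. Depth was not given, so weak summits such as those at dpp and brk are under the authors' threshold, which does not show that MESR4 was absent there.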
